A study of Mus musculus with 6 samples.

Results

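The miR-26 family of the mouse cortex was followed through its 5 mature products, mmu-miR-26a-5p, mmu-miR-26b-5p, mmu-miR-26a-1-3p, mmu-miR-26a-2-3p and mmu-miR-26b-3p (written below without the species prefix). They were taken by name from a table of 1182 mature miRNAs, in which all 5 had a row, and 3 of the 5 had enough reads to be among the 541 miRNAs that were tested. The libraries were made from small RNA of whole brain cortex of adult males that received no treatment, 3 labelled Fmr1 KO and 3 labelled WT. FMRP, the product of Fmr1, binds messenger RNAs and restrains their translation in neurons, and the comparison asks which miRNAs differ in cortex that lacks it. The sources used here do not give the KO allele, the age beyond adult or the number of animals behind each library, so p-values measure the spread between these libraries. A small RNA library does not measure the Fmr1 messenger RNA, so the genotype labels could not be checked on the targeted gene.

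A miRNA is cut from a hairpin RNA as a pair of strands, of which usually one, the guide, is kept in an Argonaute protein and pairs with messenger RNAs through its seed, bases 2 to 8. The other strand, the passenger, is mostly degraded. In mammals miR-26 is encoded in introns of the Ctdsp genes, whose products are small phosphatases that act on the C-terminal domain of RNA polymerase II and help the repressor REST keep neuronal genes silent outside neurons. miR-26 is known to target messenger RNAs of its own hosts as well as Ezh2, and it rises as neurons differentiate.

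The sequences are shown because they decide which reads can be assigned to which gene. In the mature forms below, from RefSeq on GRCm38.p6, the capitals mark the seed.
miR-26a-5p: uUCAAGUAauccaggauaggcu
miR-26b-5p: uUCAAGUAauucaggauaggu
miR-26a-1-3p: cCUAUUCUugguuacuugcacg
miR-26a-2-3p: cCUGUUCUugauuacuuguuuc
miR-26b-3p: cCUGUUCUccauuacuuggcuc

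The 5p products share 1 seed, and no other mature mouse miRNA in the RefSeq table has it. Counted from the 5′ end, miR-26b-5p differs from miR-26a-5p by C11U and C21U, with 19 of 21 aligned bases identical, and it lacks the last base of the 22 in miR-26a-5p. Both differences lie outside the seed. On the 3p side, miR-26a-2-3p and miR-26b-3p share a seed, and A4G separates miR-26a-1-3p from both. Of the other miRNAs with that shared 3p seed, miR-6932-3p had 5 reads over all libraries, and miR-7039-3p was not analysed here. Because miR-26a-5p is cut in identical form from 2 hairpins, its reads cannot be split between Ctdspl and Ctdsp2. The 3p products differ between those hairpins at 6 of 22 bases and therefore tell the loci apart.

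The hairpins follow, with both arms in capitals.
Mir26a-1: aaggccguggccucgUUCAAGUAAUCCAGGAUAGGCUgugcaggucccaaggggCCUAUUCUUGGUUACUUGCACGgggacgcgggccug
Mir26a-2: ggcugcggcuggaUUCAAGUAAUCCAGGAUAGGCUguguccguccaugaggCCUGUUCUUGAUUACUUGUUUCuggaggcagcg
Mir26b: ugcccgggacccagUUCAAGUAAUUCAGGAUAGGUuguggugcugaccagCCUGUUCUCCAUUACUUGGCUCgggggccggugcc

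Each hairpin lies on the plus strand, as does its host gene. On GRCm38, Mir26a-1 (chromosome 9, 119031796 to 119031885) sits in intron 5 of 7 of Ctdspl in its 8-exon protein-coding transcript in GENCODE M21. Mir26a-2 (chromosome 10, 126995530 to 126995613) sits in intron 5 of 7 of Ctdsp2. Its last base is also the first base of an exon that opens a shorter transcript of Ctdsp2, an overlap of 1 base. Mir26b (chromosome 1, 74394310 to 74394394) sits in intron 4 of 6 of Ctdsp1, an intron of 564 bases. Ctdsp2 holds a further hairpin, Mir546, whose product was not analysed here.

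Summed over all rows, the libraries had counts of 11182888 to 15733876. Such a sum is not a number of reads, since 14 pairs of rows, none with a miR-26 product, held counts within 3% of each other in every library, as miR-9-5p and miR-9b-3p did, and may count the same reads in both rows. With each pair counted once the sums were 8174047 to 11957961, lower by 22.4% to 27.7%. Levels are given as counts per 1000000 on the TMM scale (CPM), which sets libraries to the bulk of their miRNAs, or per 1000000 of a library's counts summed over all rows (RPM). The scales part most for KO replicate 2, whose TMM factor was 0.827 against 0.966 to 1.09 in the other libraries. On the TMM scale, which divides by this factor, that library held the highest level of the most abundant miRNA, miR-9-5p. The level there was 316153.0 CPM, against 183266.0 to 228914.0 CPM in the others. Of 4 neuronal marker miRNAs all were detected, with summed levels of 92955.0 to 107279 CPM in KO and 101712 to 113776 CPM in WT. This sum follows miR-128-3p, whose log2 mean CPM was 16.62, against 10.70 or less for the other neuronal markers.

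The family's output was nearly all miR-26a-5p, which ranked 4th to 6th of all rows in the libraries, or 3rd to 5th with each near-identical pair counted once. Its level was lower in all 3 KO libraries than in any WT library, but it did not pass the test over all miRNAs. It had 23891, 29075 and 19328 CPM in KO replicates 1, 2 and 3, and 30999.6, 32110.1 and 32702 CPM in WT replicates 1, 2 and 3. The groups did not overlap, with KO replicate 2 nearest to WT and KO replicate 3 lowest. The KO mean was 24098 ± 4877 CPM and the WT mean 31937 ± 864 CPM (± SD, n = 3 libraries per genotype). The log2 fold change of KO over WT was -0.41 (SE 0.17, 95% interval -0.79 to -0.02), which puts KO at 75.5% of WT. Its unadjusted p was 0.0399 and its adjusted p 0.72 (edgeR quasi-likelihood test, Benjamini-Hochberg over 541 miRNAs). Of all 541 tested miRNAs, 0% passed at an adjusted p of 0.05, and 3.14% were lower in KO at an unadjusted p below 0.05. Groups that do not overlap, with KO lower, were found for 10.5% of tested miRNAs on the TMM scale. The cortex is a mixture of cells, so fewer cells that hold miR-26a and less of it per cell cannot be told apart.

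The order of the KO libraries depended on the scale, while their place below WT did not. In RPM, miR-26a-5p had 26079, 24029.5 and 20967 in KO replicates 1, 2 and 3, and 31901, 32976 and 31601 in WT replicates 1, 2 and 3. On this scale KO replicate 2 was no longer the KO library nearest to WT, and the KO spread was smaller (SD 2573 against 4877 CPM). As a share of the counts summed over all rows, miR-26a-5p took 2.10% to 2.61% in KO and 3.16% to 3.30% in WT. With each near-identical pair counted once, the share was 2.87% to 3.36% in KO and 4.16% to 4.34% in WT, and the groups again did not overlap. The groups also stayed apart with DESeq2 size factors and with TMM factors computed without the 5 most abundant miRNAs.

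Second in the family was miR-26b-5p, the guide from Ctdsp1, which ranked between 99th and 114th of all rows in the 6 libraries. It had 224.2, 301.3 and 188.5 CPM in KO replicates 1, 2 and 3, and 263.9, 285.5 and 268.5 CPM in WT replicates 1, 2 and 3. The groups overlapped on the TMM scale, since KO replicate 2 was the highest of the 6 libraries and the other KO libraries were the lowest. The KO mean was 238.0 ± 57.6 CPM and the WT mean 272.6 ± 11.4 CPM (± SD, n = 3 per genotype). The log2 fold change was -0.20 (SE 0.21, 95% interval -0.67 to 0.28, adjusted p = 0.818, edgeR), so a difference of this size was within the spread between libraries.

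In RPM the groups of miR-26b-5p did not overlap. The values were 244.7, 249.0 and 204.5 in KO replicates 1, 2 and 3, and 271.6, 293.2 and 259.4 in WT replicates 1, 2 and 3. On that scale 8.69% of tested miRNAs had groups that did not overlap with KO lower. With each near-identical pair counted once in the sums, the values per 1000000 were 315.4, 344.6 and 279.8 in KO replicates 1, 2 and 3, and 355.3, 385.9 and 341.4 in WT replicates 1, 2 and 3, and the groups overlapped. The placing of miR-26b-5p in KO replicate 2 therefore rests on the scaling, and with DESeq2 size factors and with TMM factors computed without the 5 most abundant miRNAs its groups overlapped as they did on the TMM scale.

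**Figure D1:**
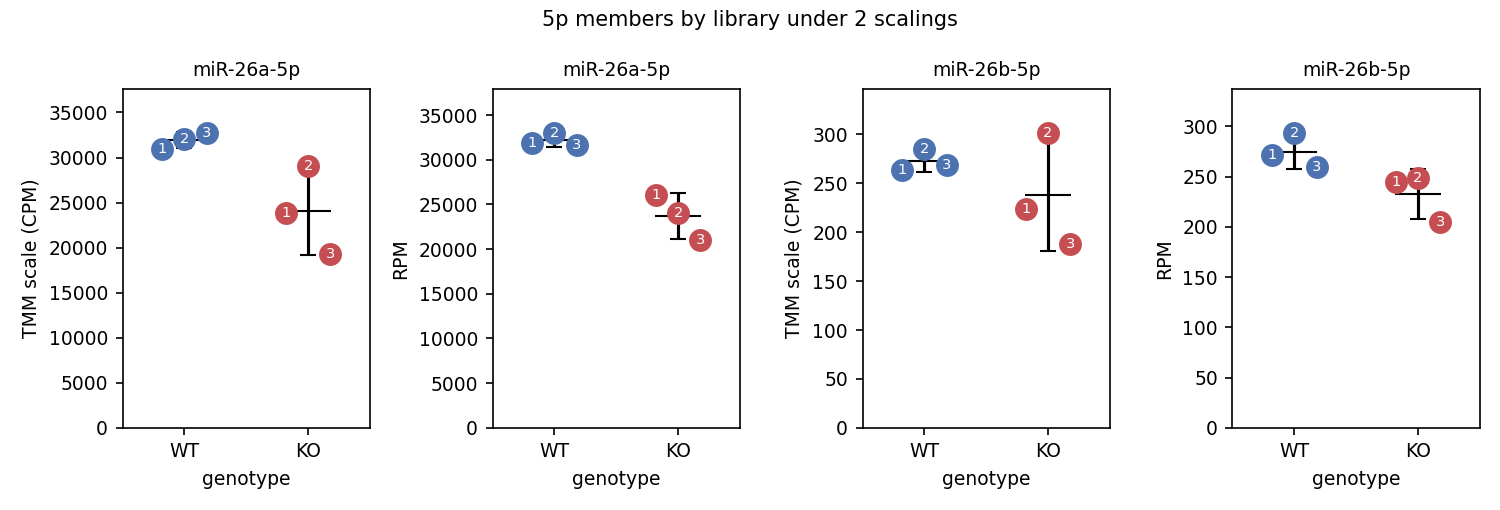
Levels of miR-26a-5p (left pair) and miR-26b-5p (right pair) by genotype, on the TMM scale in CPM and in RPM. Points are libraries numbered by replicate, and bars are means with SD (n = 3). All KO points of miR-26a-5p lie below the WT points on both scales, while KO replicate 2 of miR-26b-5p moves from 301.3 CPM, above every WT library, to 249.0 RPM, below every WT library.

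Within a library the ratio of the 2 guides needs no scaling, though reads with mismatches could be assigned between them. There were 106.6, 96.5 and 102.5 reads of miR-26a-5p per read of miR-26b-5p in KO replicates 1, 2 and 3, and 117.4, 112.5 and 121.8 in WT replicates 1, 2 and 3. Every KO ratio was below every WT ratio. The log2 ratio averaged 6.67 ± 0.07 for KO and 6.87 ± 0.06 for WT (± SD, n = 3 per genotype), a difference of -0.20, or 0.869 times the WT ratio. The exact two-sided permutation p was 0.1, the smallest that 3 against 3 libraries can give, and 0.25 after adjustment over the 5 ratios and sums that were compared. With 1 library left out the difference stayed between -0.24 and -0.16. Such separation is common among these libraries, since 22.9% of 10731 pairs of miRNAs with a mean of at least 100 CPM had ratios that did not overlap between genotypes (23.3% with each near-identical pair counted once). Among 54 of those pairs that share a seed, the pair of miR-26 guides included, the share was 27.8%. Pairs are not independent, since members of a large seed family each enter several of them.

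**Figure D2:**
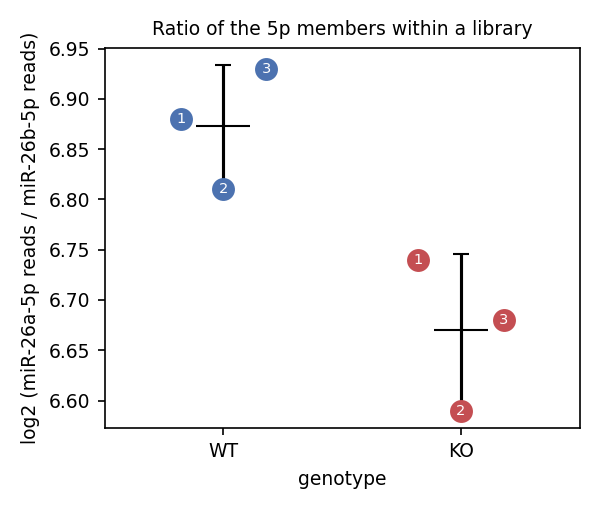
The log2 ratio of miR-26a-5p reads to miR-26b-5p reads in each library, by genotype. Points are libraries numbered by replicate, and bars are means with SD (n = 3); the axis does not start at 0. The KO libraries lie between 6.59 and 6.74 and the WT libraries between 6.81 and 6.93.

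The passenger strands were close to the limit of detection. The most frequent was miR-26a-2-3p, from Ctdsp2, with 13, 21 and 29 reads in KO replicates 1, 2 and 3 and 13, 20 and 11 reads in WT replicates 1, 2 and 3. The groups overlapped, and KO replicate 3, the library with the lowest summed count, had the most. The KO mean was 1.68 ± 0.755 CPM and the WT mean 1.02 ± 0.401 CPM (± SD, n = 3 per genotype). The log2 fold change of 0.72 (SE 0.47, 95% interval -0.36 to 1.79, adjusted p = 0.769, edgeR) was within the spread between libraries. It was the only one of the 3 tested members with a higher value in KO.

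The remaining passengers had too few reads for the test. From Ctdsp1, miR-26b-3p had 3, 8 and 6 reads in KO replicates 1, 2 and 3 and 5, 0 and 8 reads in WT replicates 1, 2 and 3. From Ctdspl, miR-26a-1-3p had 0, 2 and 4 reads in KO replicates 1, 2 and 3 and 4, 2 and 1 reads in WT replicates 1, 2 and 3. Genotypes overlapped for both. A count of 0 allows a level of up to 0.224 RPM in KO replicate 1, and up to 0.227 in WT replicate 2 (3 reads of the summed counts, counting error only). Across the family the read counts thus fell in the order miR-26a-5p, miR-26b-5p, miR-26a-2-3p, miR-26b-3p and miR-26a-1-3p, with 2336483, 21141, 107, 30 and 13 reads in all. Neighbours in this order had ranges over libraries that did not overlap, except miR-26b-3p (0 to 8 reads) and miR-26a-1-3p (0 to 4 reads).

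**Figure D3:**
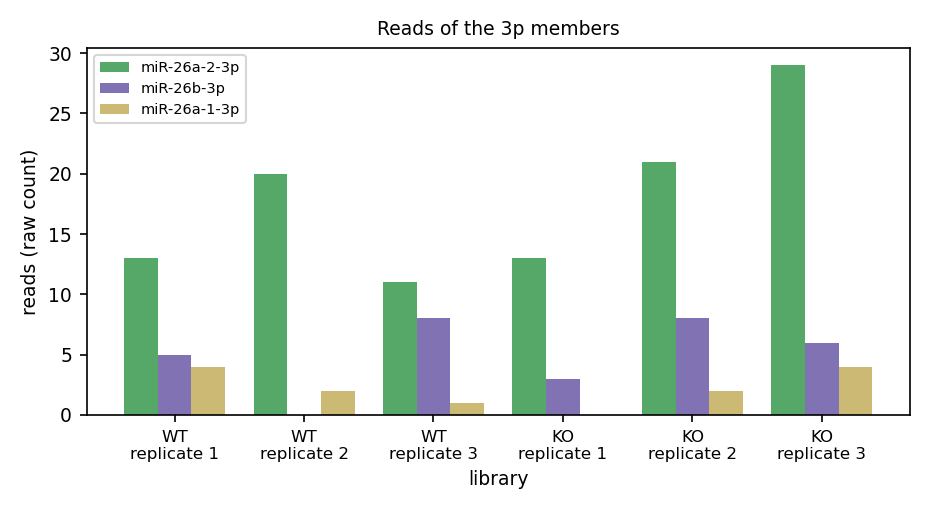
Raw read counts of the 3 passenger strands in each library. Each bar is 1 library's count; miR-26a-2-3p has the tallest bar in all 6 libraries (11 to 29 reads), and an absent bar is a count of 0.

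Of the passenger reads from the miR-26a hairpins, most came from Ctdsp2. In all libraries together 13 of 120 such reads, or 10.8% (95% exact binomial interval 5.90% to 17.8%), were miR-26a-1-3p from Ctdspl. The share was 6 of 69 reads in KO (8.70%, interval 3.26% to 17.97%) and 7 of 51 in WT (13.7%, interval 5.70% to 26.3%). These intervals cover counting error only, and reads are not unique molecules. The difference in log2 ratio of the 2 passengers was within the spread between libraries (mean ± SD of -3.52 ± 1.08 for KO and -2.52 ± 0.811 for WT, n = 3 per genotype; p = 0.4 by a two-sided exact permutation test, 0.4 adjusted). How far passenger reads mirror the guide made at each locus was not tested.

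The preference for the 5p arm was strong for miR-26a. Passengers made up 0.00514% of miR-26a reads (interval 0.00426% to 0.00614%), or 1 read in about 19471 guide reads, and 0.142% of miR-26b reads (interval 0.0956% to 0.202%). These intervals pool all libraries and cover counting error only, not the spread between libraries. Over 174 hairpin names with both arms in the table and at least 1000 reads, with the miR-26a passengers summed, the median share of the rarer arm was 1.83%. By this share miR-26a was 5th from the lowest of these names, after miR-21a, miR-99a, miR-100 and miR-182, and miR-26b was 35th. The share of miR-182, 0.00499%, rests on 1 read of its rarer arm, so its place before miR-26a is not settled. Near-identical rows were not merged in this ranking. Those ahead of miR-26a are named here after their values were seen. Passengers with a locus number in their names were summed for miR-26a only. Other guides with such passengers are therefore missing from the 174 names, and where they would rank was not tested.

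Passenger shares of miR-26a were 0.00371%, 0.00665% and 0.0141% in KO replicates 1, 2 and 3, and 0.00359%, 0.00504% and 0.00241% in WT replicates 1, 2 and 3. KO replicate 3 stood above the rest and the other KO libraries lay near the WT values. The log2 ratio of guide to passengers averaged 13.76 ± 0.948 for KO and 14.75 ± 0.519 for WT (± SD, n = 3 per genotype; p = 0.2 by the same exact test, 0.333 adjusted). Its difference of -0.99 shrank to -0.49 without KO replicate 3. For miR-26b the corresponding log2 ratios were 9.02 ± 0.753 and 10.45 ± 2.16 (p = 0.4 by the same exact test, 0.4 adjusted). That difference of -1.43 was set mostly by WT replicate 2, which had 0 passenger reads and a prior count of 0.5, and was -0.19 without it.

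Summed over its 5 products, the family averaged 24338 ± 4934 CPM for KO and 32211 ± 868.3 CPM for WT (± SD, n = 3 per genotype; p = 0.1 by the exact permutation test, 0.25 adjusted). This sum follows miR-26a-5p, which made up 99.0% of KO and 99.2% of WT guide reads. Of the 3 tested members 2 had lower and 1 had higher values in KO, with a median log2 fold change of -0.20. Of all 541 tested miRNAs 257 had lower and 284 higher values, with a median of 0.027. The spread between KO libraries exceeded that between WT libraries for both guides, with SDs of log2 CPM of 0.29 and 0.04 for miR-26a-5p and of 0.34 and 0.06 for miR-26b-5p. The medians over all tested miRNAs were 0.408 in KO and 0.142 in WT.

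**Figure D4:**
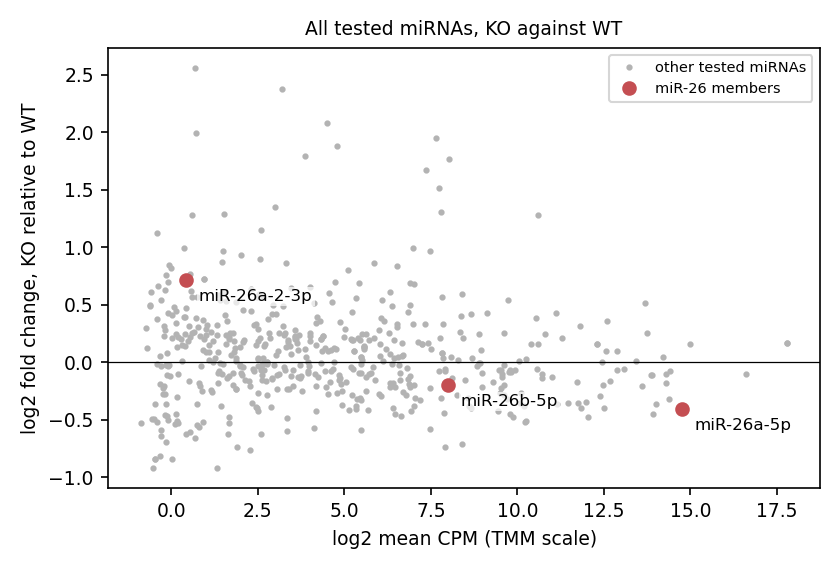
The log2 fold change of KO over WT against the log2 mean level in CPM for each of the 541 tested miRNAs (grey) and the 3 tested miR-26 members (red). The guides lie below 0, at -0.41 for miR-26a-5p and -0.20 for miR-26b-5p, and the passenger miR-26a-2-3p lies above it at 0.72 among miRNAs of low level.

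KO replicate 3 was the lowest library for both guides, and without it the log2 fold change was -0.25 for miR-26a-5p and -0.03 for miR-26b-5p. Without KO replicate 2 the values were -0.61 and -0.45. None of these passed at an adjusted p of 0.05. Marker miRNAs of other cell types moved in some of the same libraries. Choroid plexus miRNAs, 3 of 3 with a higher KO mean, summed to 1636 CPM in KO replicate 3 against 675.2 to 776.2 CPM in the other libraries. Oligodendrocyte miRNAs, of which 1 of 3 had a higher KO mean, were lowest in that library at 558.2 CPM, against 704.7 to 880.0 CPM elsewhere. Microglia and leukocyte miRNAs, 6 of 6 with a higher KO mean and 5 of 6 tested, summed to 195.4 to 219.2 CPM in KO. In WT their sums were 170.7 to 180.9 CPM. Groups that do not overlap, with KO higher, were found for 5.18% of single tested miRNAs on the TMM scale. No such share was computed for sums. The microglia and leukocyte sum follows miR-146a-5p and miR-150-5p. Their log2 mean CPM was 6.51 and 6.43, against 3.62 or less for the other tested markers of that list. Endothelial and mural miRNAs had a higher KO mean in 4 of 4 and overlapped, with 38483 to 44554 CPM in KO and 35223 to 42566 CPM in WT. Erythroid miRNAs were higher in mean in 3 of 3, with 79.4 to 119.3 and 74.7 to 82.2 CPM. Olfactory and epithelial miRNAs, also 3 of 3 with a higher KO mean, summed to 15.01, 866.4 and 933.2 CPM in KO replicates 1, 2 and 3, against 81.5 to 276.1 CPM in WT. KO replicates 2 and 3 thus stood above every WT library and KO replicate 1 below. Among the KO libraries both guides were highest in replicate 2 and lowest in replicate 3 on the TMM scale. In RPM both were again lowest in replicate 3, but miR-26a-5p was highest in replicate 1. In every marker list 0 tested members passed at an adjusted p of 0.05. Of all 541 tested miRNAs, 284 had higher values in KO. No listed marker was at 0 in all libraries, and the part of these cells in the miR-26 values was not tested.

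The miRNAs whose levels followed miR-26a-5p most closely across the 6 libraries were miR-103-3p, miR-99a-5p, miR-337-5p, miR-181b-5p and let-7a-5p. Likeness was measured as the root mean square difference between profiles of log2 CPM, each centred on its own mean, among 145 other miRNAs of at least 100 CPM. It was 0.041 for miR-103-3p, 0.069 for miR-99a-5p and 0.095 to 0.106 for the other three, against a median of 0.315 over the 145. All 5 were lowest in KO replicate 3, by 0.47 to 0.55 below their own means, as was miR-26a-5p by 0.51. Their log2 fold changes ran from -0.52 for miR-181b-5p to -0.32 for miR-99a-5p, with adjusted p-values of 0.694 to 0.749 (edgeR). Nearest to miR-26b-5p were miR-27b-3p (0.086), miR-99a-5p (0.089), miR-103-3p (0.105), miR-181d-5p (0.125) and let-7c-5p (0.131). The guides stood 0.115 from each other, so that 7 of the 145 were nearer to miR-26a-5p than miR-26b-5p was, and 3 were nearer to miR-26b-5p than miR-26a-5p was. These distances describe 6 libraries that share scaling factors and genotype. Since the nearest miRNAs were chosen for likeness over the same libraries, their low values in KO replicate 3 and their fold changes largely follow from that choice.

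**Figure D5:**
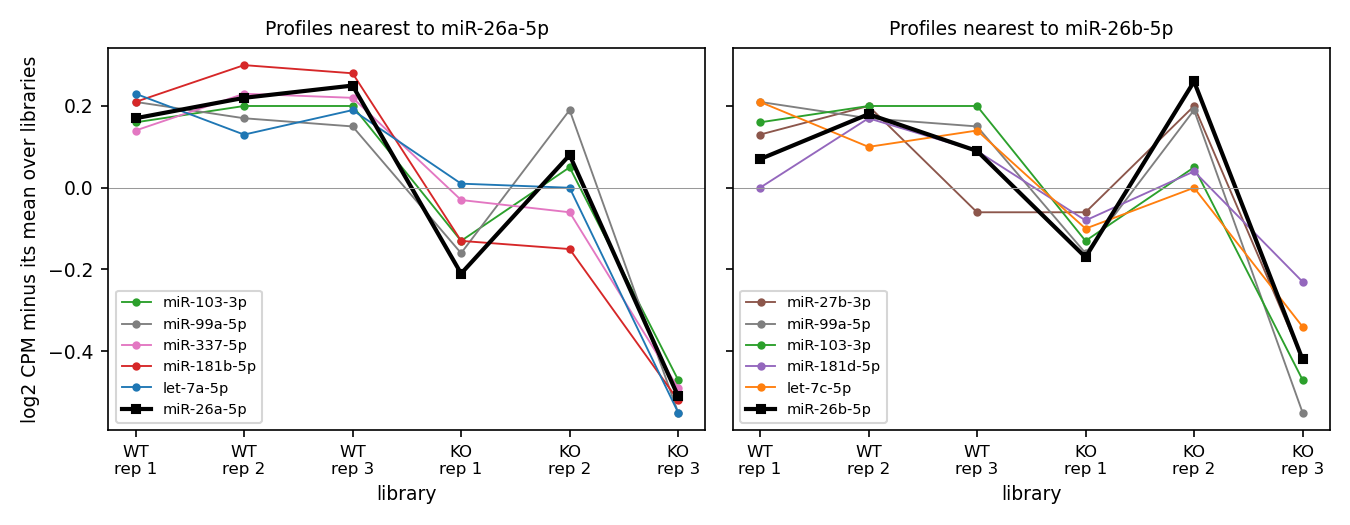
Log2 CPM minus its mean over libraries, by library, for miR-26a-5p (left, black) and miR-26b-5p (right, black) with the 5 miRNAs of nearest profile (colours). Lines join the values of 1 miRNA and carry no order in time. All profiles shown reach their lowest value in KO replicate 3, and the coloured ones were chosen for likeness to the black one.

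Among miRNAs of the REST and Ctdsp circuit, to which miR-26 is linked in neuronal differentiation, 0 of 8 tested products passed the test, against 0% of all tested miRNAs. Of these 4 had lower and 4 higher values in KO, with a median log2 fold change of -0.02. Neuronal miR-124, which represses Ctdsp1 and other genes of non-neuronal cells, had log2 fold changes of -0.13 (SE 0.21) for miR-124-3p and -0.14 (SE 0.18) for miR-124-5p. The products of miR-9, which targets REST, had 0.17 (SE 0.20) for miR-9-5p and -0.07 (SE 0.15) for miR-9-3p. For the activity-induced pair miR-132 and miR-212 the values were 0.21 (SE 0.13) for miR-132-5p, 0.03 (SE 0.21) for miR-132-3p, 0.25 (SE 0.32) for miR-212-3p and -0.40 (SE 0.33) for miR-212-5p. Levels of miR-132-5p were 2729.5, 2763 and 2562 CPM in KO replicates 1, 2 and 3 and 2289, 2307 and 2345 CPM in WT replicates 1, 2 and 3. Its groups did not overlap, with KO higher, which 5.18% of tested miRNAs also showed. The adjusted p for these 8 ranged from 0.749 to 0.97.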

How the data were processed

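Small RNA from 6 cortex libraries was sequenced from a single end after adaptor ligation, PCR and size selection, per the labels' protocols. Per the submitters' processing notes, Bowtie, DESeq2 and mm10 were used. Their versions and roles, the adaptor trimming, the miRBase release and the handling of mismatches, strand and multiply matching reads were not given in the sources used here. Reads with mismatches could therefore be assigned between miR-26a-5p and miR-26b-5p. The deposited table holds raw read counts per mature miRNA, per the file headers, and TPM values that the authors made by dividing each count by its column total (largest deviation 4.9e-10). All columns belonged to a sample.

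Groups follow the genotype label; replicate numbers follow accession order and pair nothing. The counts were filtered (filterByExpr, minimum count 10), scaled by TMM and tested with edgeR 4.0.16 in R 4.3.3 (robust quasi-likelihood test), with Benjamini-Hochberg adjustment over 541 miRNAs and a threshold of 0.05. The procedure was tested on simulated counts, with planted changes larger than those of the guides and the same spread in both genotypes. It therefore does not tell how well changes as small as theirs are found. Ratios had a prior count of 0.5 added and were compared by exact permutation in SciPy 1.17.1. Binomial intervals are exact, at 95%. Sequences came from RefSeq (GRCm38.p6, all 5 members matched) and hosts from GENCODE M21, of the same assembly as mm10. Alternatives used DESeq2 1.42.0, limma 3.58.1 (also on log2 of TPM plus 1), other scalings, no filter, a prior count of 5, and each library left out. Named miRNAs were the members, seed mates, Ctdsp-hosted miRNAs, the 5 nearest profiles to each guide and the circuit list. From the microglia and leukocyte markers, miR-146a-5p and miR-150-5p were named after their values were seen. The names ahead of miR-26a in the arm ranking, miR-9b-3p, and miR-128-3p from the neuronal markers were also chosen after their values were seen. So was the alternative that counts near-identical rows (within 3% in every library, at least 200 reads) once in the sums. The members, lists and tests were chosen with earlier results of these data known.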

Additional observations from a re-analysis of the deposited data

How the results depend on the processing

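No miR-26 member passed at an adjusted p of 0.05 under any of the 12 alternatives. The directions of the 3 tested members held in all 12, with log2 fold changes of -0.61 to -0.25 for miR-26a-5p (adjusted p 0.345 to 0.999), -0.45 to -0.03 for miR-26b-5p (0.498 to 0.999) and 0.37 to 1.11 for miR-26a-2-3p (0.382 to 0.999). The unadjusted p of miR-26a-5p was below 0.05 in 6 of 12 alternatives. Over all miRNAs, 0 passed (35 of 541 at an unadjusted p below 0.05; DESeq2 gave 0 and 40, limma-voom 0 and 33), and with 1 library left out the count ran from 0 to 18. The 18 came without KO replicate 3, 0 of them members, and the cause was not tested.

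The ratios and the sum kept their direction under every alternative run. Their exact permutation p-values were at least 0.1, which is the smallest that 3 against 3 libraries can give. With a prior count of 5 the difference was -0.69 for the miR-26b arms and -0.47 for the miR-26a passengers, which had few reads. With 1 library left out, these differences ran from -2.20 to -0.19 and from -1.41 to -0.39, and that of the miR-26a arms from -1.44 to -0.49. The difference of the summed family ran from -10393 to -5464 CPM, and was -8509 in RPM and -10436 per 1000000 with near-identical pairs counted once, an alternative chosen after seeing the data. No paired analysis was possible because the labels give the genotypes no shared replicate numbers.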
